A study of Mus musculus with 9 samples.

Results

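The genes described are 5 members of the C/EBP family (Cebpa, Cebpb, Cebpd, Cebpe and Cebpg), the 3 FOXA genes (Foxa1, Foxa2 and Foxa3) and Onecut1, 9 of the 17442 genes of the deposited liver table. They were found by gene symbol, and all 9 had a mean of 10 or more normalised reads and entered the fit. The set was chosen from earlier results of the same genotype comparison, so its values and differences are given as a description, with no test. Livers came from male C57BL/6 mice with fatty liver disease (NAFLD), and both genotypes ate the HFD, a diet rich in fat and cholesterol, over 16 weeks. Wild type (Msr1+/+) gave 4 livers and Msr1-/- gave 5, each from its own animal and sequenced as 1 library of total liver RNA. Msr1 encodes a scavenger receptor of macrophages, and the comparison asks what its loss does to the liver under this diet. The labels give the allele only as Msr1-/-, and since every liver used here came from the HFD, no value describes a response to the diet.

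C/EBP proteins are basic leucine zipper factors that bind DNA as dimers, with each other or with related zipper proteins. In hepatocytes C/EBPα maintains genes of glucose, urea and plasma protein metabolism, while C/EBPβ and C/EBPδ are induced in the acute phase response. C/EBPε is best known from granulocytes, where it drives genes of the secondary granules. FOXA proteins are forkhead factors that open chromatin at liver enhancers, and Onecut1 (also called HNF6) is a homeodomain factor of liver and bile duct development.

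The family members are close relatives in their DNA-binding domains, so it matters whether reads of one gene could be counted for another. The in-frame stretch of 60 coding bases most alike across the family lies in the basic region of the C/EBP zipper domain. It was picked for the highest identity to Cebpe summed over the family, with each gene placed at its own best match. Its identities are therefore high by choice and not typical of the coding sequence. Each line is read from the GENCODE M21 transcripts of GRCm38, 5′ to 3′ on the coding strand, and capitals mark bases that differ from Cebpe.
Cebpe: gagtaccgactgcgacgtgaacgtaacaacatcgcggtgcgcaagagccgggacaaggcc
Cebpa: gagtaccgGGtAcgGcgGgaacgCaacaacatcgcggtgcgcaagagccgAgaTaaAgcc
Cebpb: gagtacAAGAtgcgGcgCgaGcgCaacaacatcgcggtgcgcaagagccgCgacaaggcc
Cebpg: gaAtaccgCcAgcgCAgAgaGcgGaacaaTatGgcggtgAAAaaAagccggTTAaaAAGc

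Over these 60 bases Cebpe was identical to Cebpa and to Cebpb at 51 positions each. Cebpg, which lacks a transactivation domain of the usual kind, matched it at 40. The same comparison, again of the most alike stretch, is given within the forkhead domain for the FOXA genes, with capitals where a base differs from Foxa3.
Foxa3: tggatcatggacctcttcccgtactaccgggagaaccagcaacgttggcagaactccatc
Foxa1: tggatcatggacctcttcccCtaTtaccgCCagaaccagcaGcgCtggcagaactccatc
Foxa2: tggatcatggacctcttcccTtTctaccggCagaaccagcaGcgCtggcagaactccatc

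Foxa1 matched Foxa3 at 54 of the 60 bases and Foxa2 matched it at 55. No run of 50 bases of Cebpa, Cebpb, Cebpd, Cebpe, Foxa1, Foxa2 or Foxa3 occurred on the same strand in a transcript of another gene. Cebpg shared 24 of its 5611 runs with the predicted gene Gm44836. Onecut1 shared 2124 of its 4062 runs, nearly all through the overlapping long noncoding RNA Gm20649, which covers 52.8% of the exon bases of Onecut1. On the opposite strand, Tmem189 overlaps 20.7% of the exon bases of Cebpb, and Spidr overlaps 15% of those of Cebpd. Whether the counting used strand is not given in the sources used here, so reads in those overlaps cannot be told apart. Gm20649 lies on the same strand as Onecut1, so strand would not separate their reads, and it has no row in the table. The level of Onecut1 per kilobase below is over all its 4113 exon bases, this overlap included.

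Between 15006773 and 18238932 reads per liver were recovered from the table, and the 9 genes held between 17 and 4691 reads each in a liver. Hepatocyte markers, 12 of 12 found, summed to 11.7% to 13.6% of all normalised reads in wild type and to 12.9% to 14.8% in Msr1-/-. Wild type 3 stood apart, with a score of 88.74 on the first principal component (41.0% of the variance) against -27.61 to 8.30 in the other 8 livers. It also had the lowest hepatocyte marker share, and for each of the 9 factors a value without it is given. Msr1 reads were found in each Msr1-/- liver, between 152.7 and 209.1, and ranged from 194.5 to 460.5 in wild type. The log2 difference was -0.58 (two-sided exact permutation p = 0.0476, where 0.0159 is the smallest possible), and -0.31 without wild type 3 (exact permutation p = 0.107). Leaving out any other liver except Msr1-/- 3 also took the exact permutation p above 0.05, to between 0.0714 and 0.107. Since the table holds 1 total per gene and not a value per exon, this level is a weak check of the labels.

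Among the 9 factors, Cebpe and Foxa3 were the genes whose genotypes did not overlap. Cebpe was higher in all 5 Msr1-/- livers and Foxa3 was lower in all 5. The ranges of the other 7 genes overlapped. Of all 12937 genes tested, 7.29% had genotypes that did not overlap, against these 2 of 9. Past an adjusted p of 0.05 in limma stood 1 of the 9, Cebpe, where 1.37% of all tested genes passed, 0.665% as higher and 0.703% as lower in Msr1-/-. Since the set was picked with this contrast in view, nothing is read from these counts. The log2 difference (Msr1-/- minus wild type, on log2 of value + 1) was positive in 5 genes and negative in 4, with a median of 0.22. Over all tested genes 52.7% were positive and the median was 0.02.

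**Figure D1:**
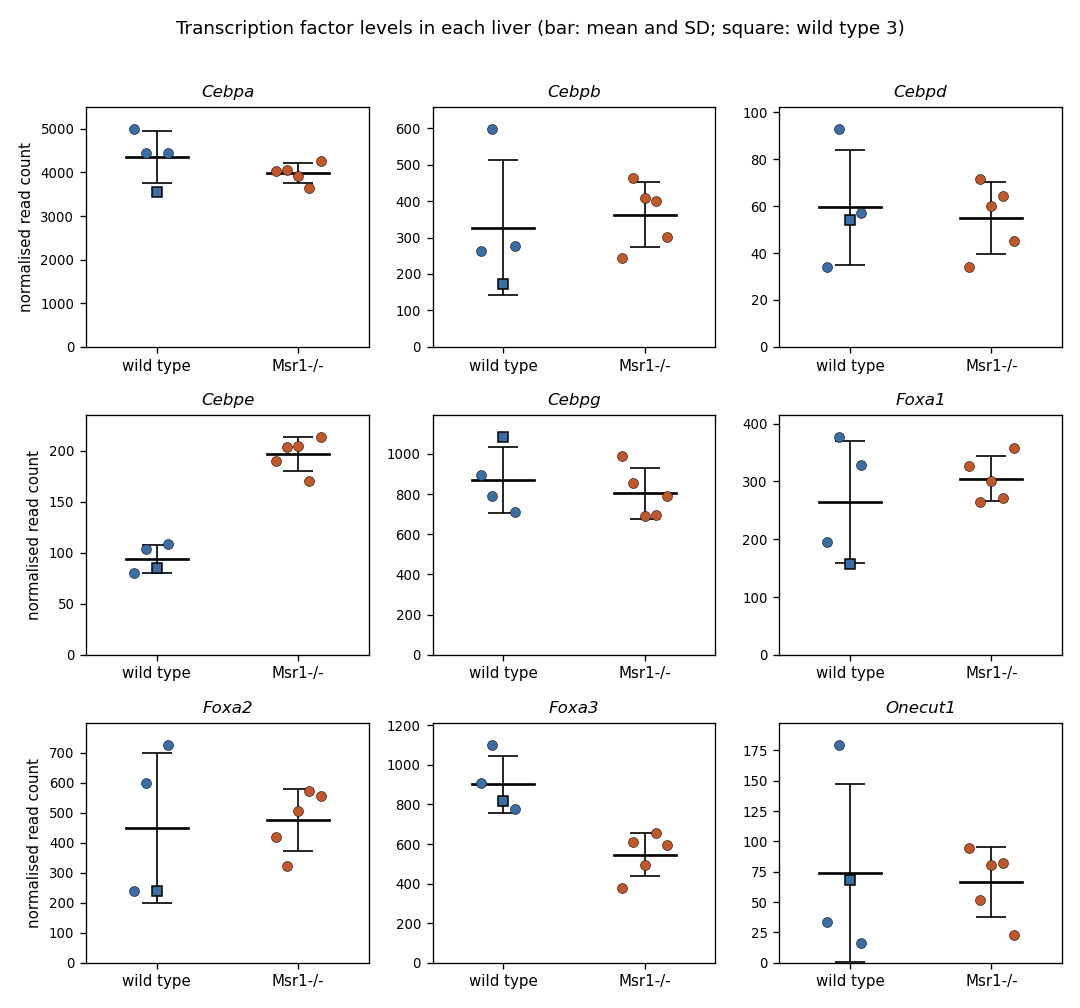
Normalised read count (vertical axes, from 0) of each of the 9 factors in 4 wild-type and 5 Msr1-/- livers, 1 point per liver, with the mean as a line and the SD as a bar; squares mark wild type 3. Only Cebpe and Foxa3 show genotypes that do not overlap, and the wild-type points of Cebpb, Foxa1, Foxa2 and Onecut1 lie far apart.

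**Figure D2:**
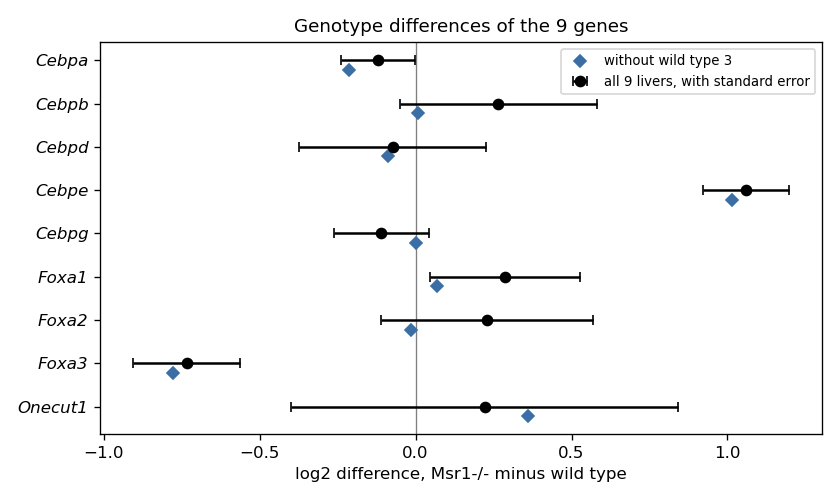
Log2 difference of Msr1-/- minus wild type (horizontal axis) for each factor with its standard error over 9 livers (circles and bars), and the difference without wild type 3 (diamonds). Cebpe at 1.06 and Foxa3 at -0.73 lie outside the range of the other 7, which runs from -0.12 to 0.29 over 9 livers.

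Per kilobase of exon, Cebpa was the most abundant of the 9 in wild type at 1654 ± 225 normalised reads (SD, n = 4). Foxa3 followed at 442 ± 70.6, then Cebpb at 218 ± 124, Foxa2 at 190 ± 105 and Cebpg at 155 ± 28.8. Foxa1 at 79.4 ± 31.6 and Cebpe at 75.8 ± 11.1 were close together, and Onecut1 (18.0 ± 17.8) and Cebpd (15.9 ± 6.5) were the lowest. Neighbours in this order overlapped between livers, except that Cebpa lay above Foxa3, Cebpg above Foxa1 and Cebpe above Onecut1 in every liver. The Msr1-/- livers had the same order with 1 change. There Cebpe, at 158 ± 13.4 (n = 5), stood above Foxa1, at 91.5 ± 11.7, and above the mean of Cebpg, 143 ± 22.2. All 5 livers held more Cebpe than the highest Foxa1 value of 107.8 per kilobase.

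**Figure D3:**
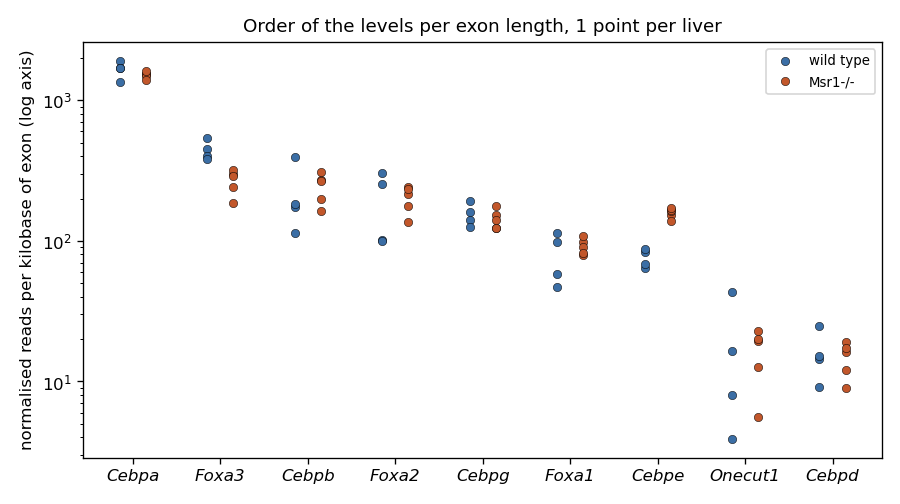
Normalised reads per kilobase of exon on a log axis for the 9 factors, ordered by the wild-type mean, with 1 point per liver for wild type and Msr1-/-. Cebpa lies between 1351 and 1893 in both genotypes, and Cebpe moves from the level of Foxa1 in wild type to that of Cebpg in Msr1-/-.

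Cebpe (chr14:54710360-54712174 in mm10, minus strand, 2 exon blocks) was the C/EBP gene with the clearest difference. Normalised counts were 80.2, 103.4, 84.7 and 108.1 in wild type 1 to 4 and 189.7, 203.5, 204.6, 170.7 and 213.4 in Msr1-/- 1 to 5. The lowest Msr1-/- liver was thus well above the highest wild-type liver, and the spread within each genotype was small. Means were 94.1 ± 13.7 and 196.4 ± 16.7, a log2 difference of 1.06 ± 0.14 (SE) or 2.09-fold, and 2.02-fold without wild type 3. These counts rest on 75 to 224 reads per liver, and the 75 reads of wild type 1 have a 95% exact Poisson interval of 59.0 to 94.0, for counting error only. Relative to Cebpa, the main C/EBP gene of hepatocytes, Cebpe stood at 0.0161 to 0.0243 in wild type and at 0.0467 to 0.0524 in Msr1-/-. Its share of all C/EBP counts was 1.28% to 1.93% and 3.43% to 3.88%, again without overlap. These ratios and shares, and those of the other factors below, use counts not divided by exon length. The nearest protein-coding gene upstream of Cebpe, the amino acid transporter gene Slc7a8, lies 10034 bases away and was not higher in Msr1-/-. Slc7a8 stood at 101.5 ± 52.2 in wild type, with 179.6 in wild type 3, and at 57.0 ± 12.1 in Msr1-/- (limma adjusted p = 0.234).

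Genes of granulocytes, the cells in which C/EBPε is best known, were mostly too low to be tested. The 14 granule genes listed beside C/EBPε were not limited to secondary granules, so they are no readout of C/EBPε. Of these, 9 had a row and 3 had enough reads to be tested. Among those 3 the log2 difference was negative in 2 and positive in 1. At an adjusted p of 0.05, limma called 0 higher and 1 lower. The gene called lower was Prtn3, the neutrophil protease proteinase 3 (log2 difference -4.23, limma adjusted p = 0.0316). It stood at 65.2, 92.8, 8.63 and 7.59 in wild type and at 0 to 1.96 in Msr1-/-. Its call was lost in 7 of the 9 fits that leave out 1 liver, with limma adjusted p up to 0.0947 over those fits, and 2 of the list were called without wild type 4. The cathelicidin gene Camp had 10 reads in all 9 livers together, and Ltf and Ngp had no row in the table. Neutrophil markers, 8 of 10 found, summed to 152.7 to 313.0 in wild type and 71.1 to 130.3 in Msr1-/-, without overlap. S100a8, a calcium-binding protein of neutrophils, stood at 51.4 ± 26.7 and 11.4 ± 5.2 (limma adjusted p = 0.0804). All 3 neutrophil markers tested had negative differences, none passed limma at an adjusted p of 0.05, all 3 had an unadjusted p under 0.05, and edgeR called 1 and DESeq2 3. Limma called 1 of them when wild type 1, 3 or 4 was left out. Over the whole table it then called 87, 629 and 192 genes. The part of these cells in the Cebpe level was not tested beyond these values, and in whole liver fewer cells of a type and less RNA per cell cannot be told apart.

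Cebpa (chr7:35119293-35121928, plus strand, a gene of 1 exon), the factor that keeps metabolic genes of the hepatocyte active, was nearly level. It stood at 4991, 4434, 3560 and 4450 in wild type and at 4036, 4051, 3907, 3653 and 4269 in Msr1-/-. Wild type 3 was the lowest liver of all 9, and the other 3 wild-type livers lay above every Msr1-/- liver. The log2 difference was -0.12 ± 0.12, and -0.22 without wild type 3, which is the liver that makes the genotypes overlap. Cebpa varied little, with a coefficient of variation of 13.6% in wild type and 5.67% in Msr1-/-. Its neighbour Cebpg (chr7:35046422-35056573, minus strand), 62719 bases away, encodes a short partner that dimerises with other zipper proteins and takes part in the amino acid stress response. Cebpg counts were 897.2, 790.2, 1083 and 708.7 in wild type and 989.8, 853.3, 689.4, 693.4 and 790.5 in Msr1-/-. Here wild type 3 was the highest liver, and the log2 difference of -0.11 ± 0.15 came to 0.00 without it.

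Cebpb (chr2:167688915-167690418, plus strand) and Cebpd (chr16:15887286-15891031, plus strand), the acute phase members, differed more between animals than between genotypes. Cebpb stood at 263.1, 597.1, 171.8 and 277.0 in wild type and at 243.7, 462.9, 408.2, 399.9 and 300.6 in Msr1-/-. Its wild-type range was 3.48-fold, with wild type 2 the highest and wild type 3 the lowest of all 9 livers, and the Msr1-/- range was 1.90-fold. The log2 difference of 0.27 ± 0.32 came to 0.01 without wild type 3 and to 0.61 without wild type 2. Cebpd counts were 34.2, 92.8, 54.1 and 56.9 in wild type and 33.9, 71.4, 60.3, 64.3 and 45.1 in Msr1-/-, with a log2 difference of -0.07 ± 0.30, and -0.09 without wild type 3. Wild type 2 was again the highest. Animals high in Cebpb were high in Cebpd: deviations from the genotype means correlated at r = 0.77 over 9 livers and at 0.93 over 8 without wild type 3. The ratio of Cebpd to Cebpb was 0.139 to 0.161 in the 5 Msr1-/- livers and 0.130 to 0.315 in wild type, where wild type 3 held the highest ratio. Both r values describe livers that share 1 library for both genes, and no test was made on them.

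Foxa3 (chr7:19013284-19023538, minus strand) was lower in Msr1-/-. Counts were 910.0, 1100, 816.7 and 777.9 in wild type and 379.4, 611.6, 493.1, 653.7 and 594.1 in Msr1-/-. The lowest wild-type liver lay above the highest Msr1-/- liver. Means were 901 ± 144 and 546 ± 110, a log2 difference of -0.73 ± 0.17 (1.66-fold lower), and -0.78 without wild type 3 (1.71-fold lower). Over the fits that leave out 1 liver the difference ran from -0.81 to -0.61, the latter without Msr1-/- 1, which held the lowest value. The 3 FOXA genes together summed to 1211 to 2075 in wild type and to 1123 to 1508 in Msr1-/-. Of that sum Foxa3 made up 42.5% to 67.7% in wild type and 33.8% to 50.9% in Msr1-/-, so the shares overlapped while the Foxa3 counts did not. The hepatocyte marker share of reads was 12.9% to 14.8% in Msr1-/- and 11.7% to 13.6% in wild type. Its part in the Foxa3 level was not tested.

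Foxa1 (chr12:57540628-57546916, minus strand) and Foxa2 (chr2:148042877-148046969, minus strand), the paralogs that open liver enhancers in development, overlapped between genotypes. Foxa1 stood at 194.6, 376.6, 156.9 and 328.2 in wild type and at 326.4, 265.2, 301.3, 271.3 and 358.7 in Msr1-/-. Wild type 1 and 3 were the lowest of all 9 livers and wild type 2 was the highest. The log2 difference was 0.29 ± 0.24, and 0.07 without wild type 3. Foxa2 counts were 239.5, 598.2, 237.7 and 725.7 in wild type and 417.6, 323.9, 506.8, 573.0 and 555.0 in Msr1-/-. The same wild-type livers, 1 and 3, were the lowest, and 2 and 4 were the highest of all. The log2 difference of Foxa2 was 0.23 ± 0.34, and -0.02 without wild type 3, and its sign also changed without wild type 1 and with array weights. Foxa1 and Foxa2 deviations correlated at r = 0.86 over 9 livers and 0.81 without wild type 3, while Foxa3 correlated with Foxa1 at 0.10 and with Foxa2 at 0.14. The coefficient of variation of Foxa1 was 39.8% in wild type and 12.8% in Msr1-/-, and that of Foxa2 was 55.5% and 21.9%.

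**Figure D4:**
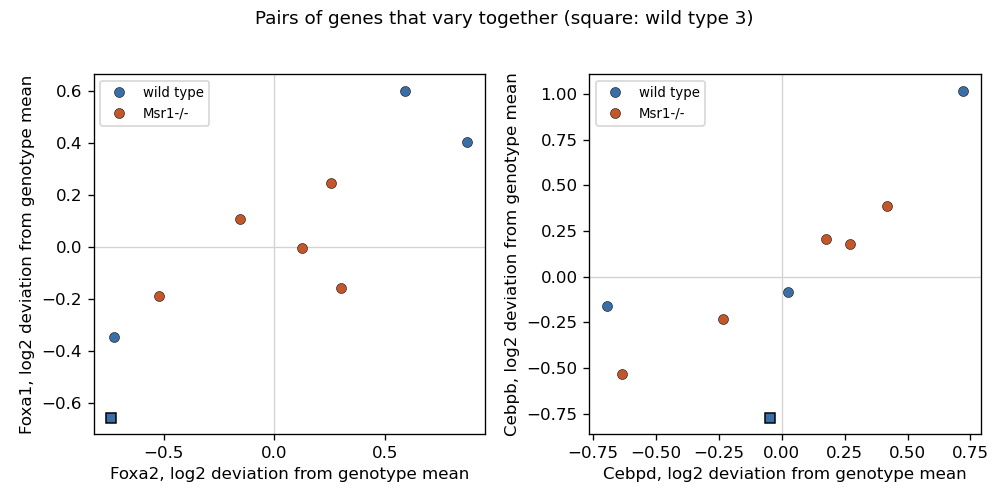
Log2 deviation of each liver from its genotype mean for Foxa1 against Foxa2 (left) and Cebpb against Cebpd (right), 4 wild-type and 5 Msr1-/- livers, with squares for wild type 3. In the left panel wild type 3 lies at the low end of both axes; in the right panel it is low on Cebpb and near 0 on Cebpd.

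Because Foxa1 and Foxa2 varied together, the promoter windows of the factors were searched for the motifs of these families, TGTTTAC for FOXA, TTGCNNAA for C/EBP and ATCAAT for Onecut1, on both strands. RefSeq windows (GRCm38.p6) of 300 bases, 250 before to 50 after a start, were matched for 7 of the 9 genes, in 9 windows. Of all 32851 windows of this length, 3.65% held the FOXA motif, 10.8% the C/EBP motif and 7.54% the Onecut1 motif. The window of Foxa1 and 1 window of Foxa2 each held 1 match, and the other Foxa2 windows held none. Both matches are shown 5′ to 3′ on the strand of the gene with the motif in capitals, which reads as its reverse complement there.
Foxa1: atactgctttGTAAACAaagtgagggc
Foxa2: aaggcccattATTGATtttttttctc

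The first is a FOXA motif 141 bases upstream of a Foxa1 start, at chr12:57546236-57546262. The second is an Onecut1 motif 213 bases upstream of a Foxa2 start, at chr2:148047167-148047192. In the windows of Cebpa, Cebpb, Cebpg, Foxa3 and Onecut1 these letters were not found. A match gives the letters in a window only, and binding was not measured. Whether the matches bear on the shared variation of Foxa1 and Foxa2 was not tested.

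Onecut1 (chr9:74861921-74891781, plus strand) varied most between animals. It stood at 33.1, 179.4, 68.3 and 16.1 in wild type and at 94.3, 51.9, 80.4, 81.9 and 23.0 in Msr1-/-. Wild type 2 and 4 were the highest and the lowest of all 9 livers, an 11.1-fold range within 1 genotype, against 4.09-fold in Msr1-/-. The SD of its log2 values lay at percentile 97.8 of all tested genes in wild type and at 98.0 in Msr1-/-. For counting error only, the 17 reads of wild type 4 have a 95% exact Poisson interval of 9.90 to 27.2, and the 170 reads of wild type 2 one of 145 to 198. The mean count was lower in Msr1-/- (66.3 ± 28.7 against 74.2 ± 73.4), while the log2 difference was positive at 0.22 ± 0.62, and 0.36 without wild type 3. On the recovered reads edgeR and DESeq2 gave -0.16 and -0.17, so no direction can be given. Its relative Onecut2 was steadier, at 1044 ± 249 in wild type and 1109 ± 111 in Msr1-/- (limma adjusted p = 0.823), and Onecut1 stood at 0.0165 to 0.134 of Onecut2 in wild type and at 0.0229 to 0.0800 in Msr1-/-.

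The genes most like each factor across livers were found by the same correlation of deviations, among 8318 genes whose mean reached 100. Cebpe varied most like Med13l (r = 0.97 over 9 livers and 0.97 without wild type 3), a gene of the Mediator kinase module, followed by Tmem259 and Fxr2. Cebpe also followed Foxa1, at 0.79 over 9 livers and 0.80 without wild type 3, although their genotype differences were unequal. Foxa3 varied most like Hspa8 (0.97 and 0.97), the constitutive heat shock chaperone, then Emc4 and the ribosomal protein gene Rpl26. Rpl26 stood at 2297 ± 258 in wild type and 1591 ± 255 in Msr1-/-, without overlap and with a limma adjusted p of 0.0848. The likeness was computed within genotype, so a genotype difference does not enter it.

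For the other factors the closest genes were Otud4 for Cebpa (0.96, and 0.92 without wild type 3), Ddx20 for Cebpb (0.97 and 0.95) and Kctd15 for Cebpd (0.98 and 0.98). Foxa1 was closest to Epc1, a subunit of a histone acetyltransferase complex (0.97 and 0.94), followed by Baz2a and Rabep2. Foxa2 was closest to Tars2 (0.98 and 0.97), followed by Myo7a and Adam11. Onecut1 was closest to Etfbkmt (0.96 and 0.96), followed by the metallothionein gene Mt1 and Ivns1abp. Next after the closest gene came Fra10ac1 and Fn1 for Cebpa, Trabd and Whsc1l1 for Cebpb, and Dmpk and Zbtb21 for Cebpd. Some pairs of factors rested on wild type 3: Cebpa and Foxa2 went from 0.13 to -0.65 without it, and Cebpa and Cebpb from 0.28 to -0.49. Cebpg and Foxa2 ran opposite ways in both, at -0.77 and -0.67. These values describe the top of many correlations over few livers that share depth and composition within a library.

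Partners and regulators of the C/EBP proteins, 14 of 14 tested, showed no call in limma, edgeR or DESeq2, and 0 had an unadjusted limma p under 0.05. Their median log2 difference was 0.06, with 9 positive, and 0.16 without wild type 3. Ddit3, the stress-induced dimer partner CHOP, stood at 133 ± 39.8 in wild type and 137 ± 12.9 in Msr1-/- (limma adjusted p = 0.907). Trib1, which directs degradation of C/EBPα, stood at 808 ± 139 and 803 ± 44.0 (limma adjusted p = 0.991). Atf4, the factor of the amino acid stress response, stood at 1978 ± 266 and 1639 ± 226 (limma adjusted p = 0.362).

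Other hepatocyte transcription factors, 18 of 20 tested, had 0 calls in limma, with 4 at an unadjusted p under 0.05, and 0 in edgeR and 2 in DESeq2. The median was 0.12 with 15 positive, and 0.02 without wild type 3, where limma called 1. Hnf4a, the nuclear receptor at the centre of hepatocyte identity, stood at 6781 ± 879 and 6505 ± 581 (limma adjusted p = 0.895). Other forkhead genes, 14 of 16 tested, had a median of 0.02, with and without wild type 3, and 0 calls in limma, edgeR and DESeq2, with 2 at an unadjusted limma p under 0.05 and 1 called by limma without wild type 3. The lowest p there was that of Foxo1, the insulin-regulated forkhead factor, at 335 ± 51.3 and 429 ± 50.7 (limma adjusted p = 0.231).

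Known targets of the factors were listed by role, and none of the 3 hepatocyte target lists held a gene past an adjusted p of 0.05 in limma. Metabolic targets of C/EBPα, 15 of 15 tested, had a median log2 difference of 0.31 with 13 positive, and 0.14 without wild type 3. In that list 2 genes had an unadjusted limma p under 0.05, and edgeR and DESeq2 called 0. The gene of lowest p was one of the 2 negative ones, the iron hormone gene Hamp, at 26695 ± 11603 in wild type and 14281 ± 6070 in Msr1-/- (limma adjusted p = 0.246). Targets of FOXA and Onecut1, 12 of 12 tested, were divided 6 to 6 with a median of 0.00 (0.10 without wild type 3), 3 at an unadjusted limma p under 0.05, and 0 and 1 called by edgeR and DESeq2. Slc2a2, the hepatocyte glucose transporter GLUT2, stood at 5218, 4703, 4694 and 4245 in wild type and at 6014 to 6302 in Msr1-/-. Its genotypes did not overlap, but the limma adjusted p was 0.0912, and 0.0610 to 0.203 when 1 liver was left out.

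Acute phase targets of C/EBPβ and C/EBPδ, 19 of 19 tested, had a median of -0.42, with 17 negative and 2 positive, and -0.53 without wild type 3. In this list 8 genes had an unadjusted limma p under 0.05, and edgeR called 2 and DESeq2 7. Limma called 0 on all livers, 1 without wild type 3 and 5 without wild type 4. Over the whole table DESeq2 called 773 of 12937 genes and edgeR 185. Limma called 4.9% of genes without wild type 3, and 192 genes without wild type 4. The serum amyloid gene Saa1 stood at 13857, 18852, 4789 and 1088 in wild type and at 1812, 1104, 679.4, 957.7 and 639.2 in Msr1-/- (limma adjusted p = 0.0893). Wild type 4 lay within the Msr1-/- range, and the other 3 wild-type livers lay above it. Without wild type 4 the limma adjusted p of Saa1 was 0.0117, the lowest of the 9 fits that leave out 1 liver, which reached 0.196. Saa2, a close copy whose reads may be hard to tell from those of Saa1, had the same order among wild-type livers, at 6081 ± 5839 and 456 ± 192 (limma adjusted p = 0.109), and Lcn2, an iron-siderophore binder also made by neutrophils, stood at 998 ± 773 and 188 ± 106 (limma adjusted p = 0.0991). Cebpb and Cebpd themselves overlapped between genotypes, as shown above. Wild type 2 was the highest of all 9 livers in Saa1, Saa2, Cebpb and Cebpd, while wild type 1, second in Saa1, was the lowest wild-type liver in Cebpd.

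Markers of several other liver cell types were lower in Msr1-/-, those of macrophages, B cells and cholangiocytes with a call, and their part in the values above was not tested. All 16 Kupffer cell and macrophage markers were negative, with a median of -0.91 and of -0.67 without wild type 3, and their sum was 10395 to 24946 in wild type and 6031 to 8079 in Msr1-/-. The highest sum was that of wild type 3, and the other wild-type livers reached 12990. The complement gene C1qa fell, from 1455 ± 452 to 748 ± 100 (limma adjusted p = 0.0355), a call that 7 of 9 fits lost on leaving out 1 liver (adjusted p up to 0.0922). Limma called 6 of the 16 without wild type 3 and 5 without wild type 4, against 629 and 192 genes of the whole table. On all livers edgeR called 1 of the 16 and DESeq2 11. Myeloid cells also express Cebpa, Cebpb and Cebpd. B cell markers were negative in 7 of 7, and the immunoglobulin gene Igkc fell from 398 ± 123 to 118 ± 39.8 (limma adjusted p = 0.0226, lost in 6 of 9 such fits with p up to 0.0703, while 3 of the list passed without wild type 3 and 2 when wild type 4 was left out). Of 3 tested cholangiocyte markers, all negative, Sox9 fell from 77.7 ± 14.2 to 27.7 ± 5.1 (limma adjusted p = 0.0103) and kept its call in all 9 fits. Sox9 belongs to the bile duct lineage in which Onecut1 also acts, and the list sum was 622 to 1707 in wild type, at most 713 without wild type 3, and 255 to 557 in Msr1-/-.

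Stellate cell markers were negative in 9 of 9 with a median of -0.55, and -0.21 without wild type 3, whose sum was 10962 against 3935 to 4589 in the other wild-type livers and 3588 to 4273 in Msr1-/-. None of them was called by limma, edgeR or DESeq2, and 2 had an unadjusted limma p under 0.05. Sinusoidal endothelial markers were nearly level, with a median of -0.02 over 8 genes, and -0.05 without wild type 3. T and NK cell markers had a median of -0.33 over 4 genes, and -0.47 over the 3 that could be tested without wild type 3. Erythroid markers had one of -0.26 over 5, and -0.39 without wild type 3. Alas2, the heme synthesis gene of red cells, went the other way, from 805 ± 215 to 1338 ± 335 (log2 difference 0.74). Its limma adjusted p was 0.115, between 0.0295 (without wild type 3) and 0.225 with 1 liver left out, and that of DESeq2 was 0.0325. All 3 adipocyte markers tested had positive log2 differences, with a median of 0.66, and 1.96 without wild type 3. Of these only Cfd, the adipsin gene, was called by limma. The others had lower mean counts in Msr1-/-, with wild type 3 the highest liver. Cfd rose from 24.4 ± 27.4 to 231 ± 170 (limma adjusted p = 0.0436), although wild type 4, at 65.5, lay within the Msr1-/- range. That call was lost in 6 of the 9 fits, with adjusted p up to 0.113. Hepatocyte markers had a median of 0.25 with 10 of 12 positive, and 0.08 without wild type 3, where Cyp2e1 (25516, against 77373 to 126665 in the other wild-type livers) was lowest.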

How the data were processed

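RNA of 9 mouse livers was sequenced from TruSeq libraries, per the labels' protocols, and the submitters' processing notes list STAR, HTSeq, DESeq2 and mm10 with no versions. The deposited table of the authors holds, for each gene in each liver, a signal that is the read count over a size factor. All values were whole multiples of 1 step per liver within 0.01 reads, so whole reads were recovered, 15006773 to 18238932 per liver, and the smallest gene total was 10. Depth gives counting error only.

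Genes with a mean of 10 or more (12937) were fitted as log2(value + 1) with limma 3.58.1 (R 4.3.3), an intensity trend and a genotype term, and called at a Benjamini-Hochberg adjusted p under 0.05. The script was tested on simulated data, where limma recovered 48% of 2-fold and 85% of 4-fold changes, with 4.32% of calls false. A list without a call can therefore still hold changed genes. The simulation drew each gene independently, with no liver-wide difference such as that of wild type 3. Its rates may therefore not hold for these livers. Alternatives were pseudocounts of 0.5 and 5, no filter, a mean of 50, scaling by TMM or quantiles, array weights, blocking on animal number, leaving out each liver, and 2 count models on the recovered reads, DESeq2 1.42.0 and the quasi-likelihood test of edgeR 4.0.16. These count models were also run without wild type 3, a choice made after seeing the data. Exon lengths and positions came from GENCODE M21 (GRCm38, the assembly of mm10) by symbol.

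The 9 genes and the gene lists were chosen with earlier results of these data known. Named beside them were Msr1, the genes of lowest p per list (up to 3 if called, otherwise 1), a fixed group of well-known partners and targets, the 3 most alike genes per factor (unnamed transcript models such as Gm or Rik features were passed over) except for Cebpg, and neighbours of Cebpe and Cebpa. Other genes appear as list counts. A gene and a sequence covered by these choices are not reported here.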

Additional observations from a re-analysis of the deposited data

Results flagged for a closer look

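In each group of 4 or 5 livers the highest and lowest values were compared with the rest by Dixon's criterion, in 120 groups, of which 6 had a liver apart from the others; chance alone gives about 1 in 20. None of the 18 groups of the 9 factors was among them. C1qa in Msr1-/- 2 stood at 919.9, above 688.3 to 753.4 in the other 4. Reln, a stellate cell gene, stood at 544.3 in wild type 1, below 638.3 to 652.7 in the others. Cfd in wild type 4 stood at 65.46, above 9.50 to 11.8. Camp in Msr1-/- 4 stood at 3.508, which is 3 reads, with 0 in the other 4 livers. Ivns1abp in Msr1-/- 5 stood at 1310, below 1638 to 1743. Slc7a8, the neighbour of Cebpe, stood at 179.6 in wild type 3, above 72.8 to 78.7 in the other 3.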

How the results depend on the processing

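Over 21 alternatives the log2 difference of Cebpe ran from 0.99 to 1.13 and that of Foxa3 from -0.81 to -0.61. Both were chosen from this contrast, so their calls below are descriptions and no support. The sign changed in 2 alternatives for Cebpb, 3 for Cebpd, 2 for Cebpg, 5 for Foxa2 and 5 for Onecut1, and in none for Cebpa, Cebpe, Foxa1 and Foxa3. Called factors numbered 1 in limma, and 2 in DESeq2, with array weights and in edgeR and DESeq2 without wild type 3. Genes called over the table went from 177 to 773 in DESeq2, 531 with array weights, and 656 and 1059 in edgeR and DESeq2 without wild type 3. Called genes of the lists went from 5 to 2 at a mean of 50 or more, 33 in DESeq2, 16 with array weights, and 25 and 34 in edgeR and DESeq2 without wild type 3. Leaving out 1 liver gave 36 to 629 genes (most without wild type 3), 1 to 2 factors, 1 to 17 list genes, and a log2 difference of Msr1 of -0.72 to -0.31.

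With the animal number as a replicate block, which leaves Msr1-/- 5 without a partner and so without weight, 8 genes, 0 factors and 1 list gene were called, and Cebpe lost its call at a log2 difference of 1.03. The labels do not say whether the numbers pair the animals. Deviations of same-numbered livers correlated at 0.02, -0.08, -0.10 and 0.22, and only wild type 1 correlated best with its own number. So few correlations cannot decide whether same-numbered animals share a factor. The cause of these changes was not tested. Low depth limits Onecut1 and Cebpd most, with 17 and 32 reads in their lowest livers.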
